A study of Mus musculus with 12 samples.

Results

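Transcripts of 10 Wnt ligand genes (Wnt2, Wnt2b, Wnt3, Wnt4, Wnt5a, Wnt5b, Wnt6, Wnt10a, Wnt10b and Wnt11) were followed in colon tumors of living mice, on arrays that measured 19938 named genes. A gene was taken through the probe sets that carry its symbol alone, and among several the probe set was chosen by its mean intensity over the 12 arrays, the highest being kept. All 10 genes were measured, and only Wnt4 had more than 1 probe set. The list of names was drawn up with results of these arrays known, from the 19 mouse Wnt ligand genes; which values chose these 10 is not stated. The limma tests over all genes are therefore given to place each gene among the 19938, and the number of ligands called (adjusted p under 0.05 over all genes) is not independent support for any direction.

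The mice were F1 hybrids of SWR females and C57BL/6 males, carried the Min mutation in 1 copy of Apc (Apc Min/+), and had received 2 treatments of 4% dextran sodium sulfate, which injures the colon lining, in the drinking water after weaning; no group without the mutation or without the treatment is used here. In each of 6 mice 1 distal colon tumor was biopsied by colonoscopy, and the latest and the earliest biopsy each went onto 1 Affymetrix array. The late biopsies were of intramucosal carcinoma, a cancer still within the mucosa, in mice 2201, 3407 and 3413, taken at 227 ± 35.2 days of age (SD, n = 3), and of adenoma in mice 1755, 1803 and 1805, taken at 333 ± 86.4 days (SD, n = 3). The early biopsies of the same tumors came at 99.7 ± 15.5 days in mice whose tumor was later read as carcinoma and at 89.0 ± 4.36 days in those whose tumor was later read as adenoma (SD, n = 3 each); they carry no pathology of their own and take that of the late biopsy. Each pathology holds 1 female and 2 males, and each tumor is 1 mouse.

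Wnt ligands are secreted, lipid-modified proteins that Porcn acylates and Wls carries to the cell surface. They bind Frizzled receptors with the co-receptors Lrp5 and Lrp6, which stops the destruction complex built on Apc and Axin from removing beta-catenin, or they signal without beta-catenin through receptors such as Ror2 and Ryk. In the intestine Wnt signals keep the crypt stem cells, and both the epithelium and the fibroblasts beneath it make ligands. Because Apc acts below the receptors, its loss turns on the beta-catenin branch without a ligand, while the other branch does not pass through Apc.

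Wnt6 and Wnt10a lie next to each other on chromosome 1, with no protein-coding gene between them in the RefSeq table, and Wnt2b lies on chromosome 3. RefSeq promoter sequences (build GRCm38.p6) were held for 8 of the 10 genes. That of Wnt6 is printed because Wnt6 was called lower in late adenoma biopsies, that of Wnt2b because its values ran the other way, and the first of 2 listed for Wnt11 because it holds the core of the motif bound by TCF and LEF, the factors that beta-catenin works through. Of the 11 promoters listed for these 8 genes, 1 other held that core, the third of 3 listed for Wnt5b. Each spans 250 bases before to 50 bases after the start of transcription, 5′ to 3′ on the gene's strand, as Wnt6 at chr1:74771642-74771941 (plus strand), Wnt2b at chr3:104961660-104961959 (minus strand) and Wnt11 at chr7:98834862-98835161 (plus strand). Capitals mark the TCF/LEF core (CTTTGA, or TCAAAG on the other strand) and the GC box (GGGCGG, or CCGCCC on the other strand), searched on both strands. The motifs share no letters with each other, and GC boxes that share a letter were counted separately.
Wnt6: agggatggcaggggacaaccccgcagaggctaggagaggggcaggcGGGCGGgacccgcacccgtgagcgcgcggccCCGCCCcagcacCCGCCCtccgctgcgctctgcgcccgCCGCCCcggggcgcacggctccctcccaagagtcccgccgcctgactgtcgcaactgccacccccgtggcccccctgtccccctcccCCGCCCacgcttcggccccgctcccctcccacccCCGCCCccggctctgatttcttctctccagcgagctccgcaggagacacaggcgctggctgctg
Wnt2b: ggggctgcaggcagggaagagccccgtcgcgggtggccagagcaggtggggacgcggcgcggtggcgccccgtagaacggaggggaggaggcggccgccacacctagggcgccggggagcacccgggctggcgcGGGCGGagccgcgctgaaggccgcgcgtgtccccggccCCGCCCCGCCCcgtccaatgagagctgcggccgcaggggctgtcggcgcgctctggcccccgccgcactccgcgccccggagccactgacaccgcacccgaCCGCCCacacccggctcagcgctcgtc
Wnt11: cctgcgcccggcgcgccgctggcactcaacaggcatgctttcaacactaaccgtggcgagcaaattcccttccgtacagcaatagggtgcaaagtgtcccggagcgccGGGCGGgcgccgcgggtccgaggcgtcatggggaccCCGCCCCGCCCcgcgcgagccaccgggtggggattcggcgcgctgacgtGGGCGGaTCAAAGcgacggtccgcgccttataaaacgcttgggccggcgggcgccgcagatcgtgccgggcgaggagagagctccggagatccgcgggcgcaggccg
The Wnt6 promoter held 6 GC boxes and no TCF/LEF core, and 76.7% of its bases were G or C. The Wnt2b promoter held 4 GC boxes and no TCF/LEF core at 79.7% G or C. The printed Wnt11 promoter held 1 TCF/LEF core and 4 GC boxes, and the second one listed for Wnt11 (chr7:98838595-98838894) held no TCF/LEF core and 1 GC box. Of all 32851 promoters of this length, 16% held a TCF/LEF core and 35.7% a GC box, and the median G or C content was 52.7%. These are matches of letters and not shown to be bound.

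The arrays were also split into 2 ranges of the submitters' sample numbers. Numbers from 155 to 255 belong to the early arrays of mice 1755, 1803, 1805 and 2201, and numbers from 319 to 379 to the other 8 arrays. The split was placed with values of these arrays known: 50 probe sets with no gene symbol, those with the lowest identifiers, averaged 6.80 to 6.94 (log2) on those 8 arrays, against 7.08 to 7.19 on the 4 early ones, and the gap of 0.14 between them was the widest between arrays. In the numbers themselves the gap from 157 to 255, which would put the early array of mouse 2201 with the other 8, is wider. All 3 pairs of adenoma and the carcinoma pair of mouse 2201 therefore cross the ranges, and both arrays of mouse 3407 and of mouse 3413, the remaining carcinoma pairs, have numbers of the second. Over the 3 adenoma pairs alone the sample number range and the time of biopsy cannot be told apart. The mean of 9 fibroblast markers was 10.9 to 11.8 (log2 intensity) on the 8 arrays of the second range, against 9.69 to 10.7 on the 4 of the first, and the mean of 7 endothelial markers was 9.82 to 10.5 against 8.54 to 9.09. All 10 markers of colon epithelium lay above the 25th percentile of gene means, and their mean was 11.5 to 12.8 on the second range and 12.2 to 12.6 on the first. In whole biopsies, fewer cells of a type and less RNA per cell cannot be told apart.

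Wnt6 and Wnt10a were the 2 ligands called lower late in adenoma tumors. Both activate beta-catenin signalling, and Wnt10a is known for its part in teeth, hair and skin. In late adenoma biopsies of mice 1755, 1803 and 1805, Wnt6 stood at 7.58, 7.78 and 7.71 (log2 intensity), against 8.54, 9.34 and 8.96 in their early biopsies. Wnt10a stood at 8.38, 8.96 and 8.35 in the late biopsies of the same mice, against 9.39, 10.4 and 9.67 in the early ones. Late and early values did not overlap for either gene, as was true, with late below early, of 7.83% of all genes. Wnt6 fell by 1.26 (log2, SE 0.122, limma adjusted p = 0.0401), a 2.39-fold drop, and Wnt10a fell by 1.26 (log2, SE 0.0984, limma adjusted p = 0.0292), a 2.40-fold drop, each in 3 of 3 mice. Adenoma and carcinoma pairs were fitted together, so the spread of the carcinoma pairs also enters these SEs and p-values. Across all genes 0.0903% were called lower in this comparison, 18 of 19938, and these ligands are 2 of them. Neither call held when any 1 of mice 1755, 1803, 1805, 3407 or 3413 was left out (limma adjusted p = 0.0659 to 0.116), while both held without mouse 2201 (0.0466 for Wnt6 and 0.0344 for Wnt10a). With a term for the sample number range, the differences were -1.08 for Wnt6 and -1.23 for Wnt10a, at limma adjusted p = 0.845 and 0.770. The correction made by that term comes from the carcinoma pairs, of which only that of mouse 2201 crosses the ranges. Over the 4 pairs across the ranges, 3 of them adenoma, the mean change was -1.02 ± 0.529 for Wnt6 and -0.98 ± 0.593 for Wnt10a (SD). Over the 2 pairs within the second range, both carcinoma, it was -0.14 ± 0.142 and -0.11 ± 0.0101 (SD).

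In carcinoma tumors the same pair of ligands stayed close to their early level. In late carcinoma biopsies of mice 2201, 3407 and 3413, Wnt6 stood at 8.22, 8.78 and 8.52, against 8.54, 8.82 and 8.76 in their early biopsies. Wnt10a stood at 8.71, 9.44 and 9.39 late, against 8.86, 9.54 and 9.52 early. Each late value was below its early partner in 3 of 3 mice, by 0.04 to 0.32 for Wnt6 and by 0.11 to 0.14 for Wnt10a, but late and early groups overlapped; 16.9% of all genes were lower in all 3 mice. The mean differences were -0.20 for Wnt6 (SE 0.122) and -0.12 for Wnt10a (SE 0.0984), both at a limma adjusted p of 0.952. In this comparison 0% of the 19938 genes were called at an adjusted p under 0.05 and 4.3% had an unadjusted p under 0.05, which none of the 10 ligands had.

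**Figure D1:**
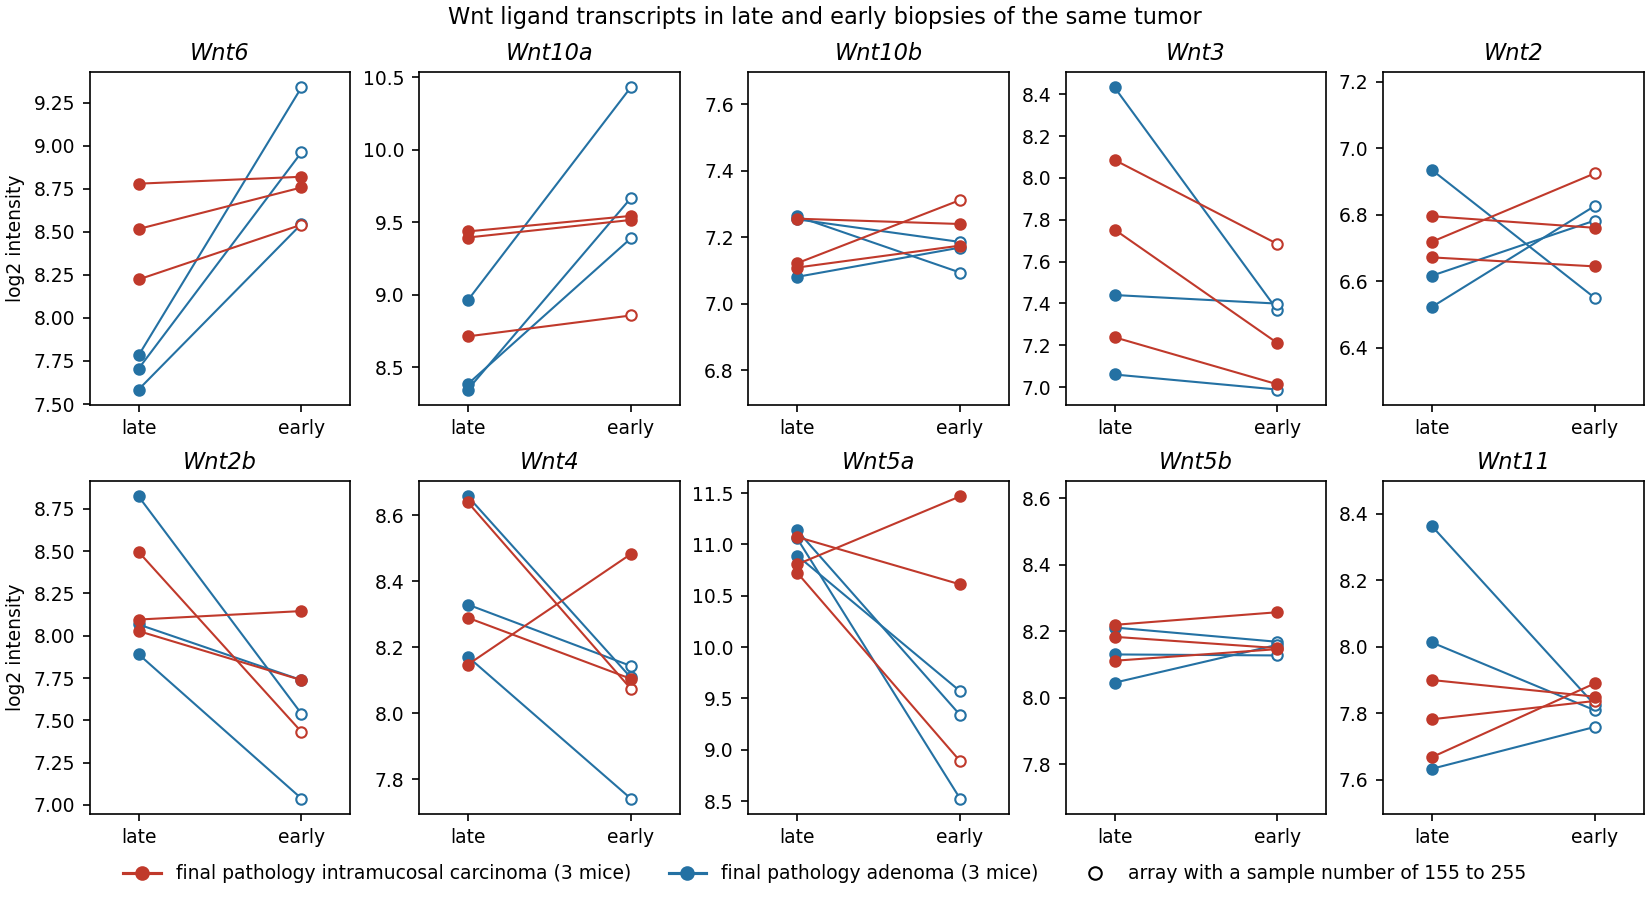
Log2 intensity (vertical axis, own scale in each panel, at least 1 log2 unit tall) of the 10 Wnt ligands in the late and the early biopsy of each tumor, with a line joining the 2 biopsies of a mouse; red is carcinoma and blue is adenoma by final pathology, and open circles are arrays with sample numbers of 155 to 255. Wnt6 and Wnt10a slope steeply in the 3 adenoma pairs and little in the 3 carcinoma pairs, and the 4 open circles of Wnt5a lie below all 8 other points.

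The difference between the pathologies was tested directly as the late-early change in carcinoma minus that in adenoma. It was 1.06 for Wnt6 (SE 0.173, unadjusted p = 0.000576, limma adjusted p = 0.561) and 1.14 for Wnt10a (SE 0.139, unadjusted p = 0.000101, limma adjusted p = 0.456). The changes of the 3 carcinoma pairs lay above those of the 3 adenoma pairs for both genes, as for 6.39% of all genes. Of the 10 ligands these 2 had an unadjusted p under 0.05, against 7.04% of all genes, and 0% of genes passed the adjusted threshold. The late biopsies came at 227 ± 35.2 days of age in carcinoma and 333 ± 86.4 days in adenoma (SD, n = 3 each). The part of age or of the time between biopsies was not tested, here or in the comparison of late biopsies below. The carcinoma pair of mouse 2201 crosses the sample number ranges, as split here, like the adenoma pairs. Its changes were -0.32 for Wnt6 and -0.14 for Wnt10a, smaller in size than that of any adenoma pair. With the numbers split at their widest gap, that pair would not cross while the 3 adenoma pairs would. Range and final pathology could then not be told apart over the pairs, and the part of the range was not tested.

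The late biopsies, whose 6 arrays all lie in the second range, were also compared with each other; this comparison shares its arrays with the one above. Wnt6 averaged 8.51 ± 0.278 in late carcinoma and 7.69 ± 0.0998 in late adenoma (SD, n = 3 each), a difference of 0.82 (SE 0.184, unadjusted p = 0.00112, limma adjusted p = 0.401) with no overlap, as for 8.77% of all genes in that direction. Wnt10a averaged 9.18 ± 0.406 in late carcinoma and 8.56 ± 0.345 in late adenoma (SD, n = 3 each), and the groups overlapped (difference 0.62, SE 0.278, limma adjusted p = 0.425). At an adjusted p under 0.05 this comparison called 0% of genes, and 11.7% had an unadjusted p under 0.05, among them these 2 of the 10 ligands. Without mouse 1803, Wnt6 passed (difference 0.86, limma adjusted p = 0.0461) and 395 genes passed in all. The mean of the colon epithelium markers was 11.7 ± 0.209 in late carcinoma and 12.5 ± 0.457 in late adenoma (SD, n = 3 each). All 10 markers were lower in carcinoma, but the differences ran from -0.03 for Epcam to -2.95 for Krt20. Their part in the Wnt6 difference was not tested.

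In the early biopsies Wnt6 averaged 8.71 ± 0.146 in carcinoma-fated and 8.95 ± 0.396 in adenoma-fated tumors (SD, n = 3 each). Over the 4 groups Wnt6 thus ran upwards from late adenoma through late carcinoma and early carcinoma-fated to early adenoma-fated biopsies; only late adenoma stood clear of its neighbour, and the other 3 groups overlapped. Wnt10a ran in the same order, and each group overlapped with the next. Over the 12 arrays the pair correlated at r = 0.918, a description of arrays that share mice and sample number ranges. Among 14005 genes, Wnt10a was the one most like Wnt6, ahead of the fatty acid elongation enzyme Hacd2 (0.909) and Slc44a5 (0.903). With the endothelial marker mean Wnt6 correlated at r = -0.67 and Wnt10a at -0.64, and the part of those cells in the values was not tested. The genes most like Wnt10a were the amino acid transporter Slc16a10 (r = 0.965), Atp10a (0.931) and the Wnt inhibitor Apcdd1 (0.922).

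**Figure D2:**
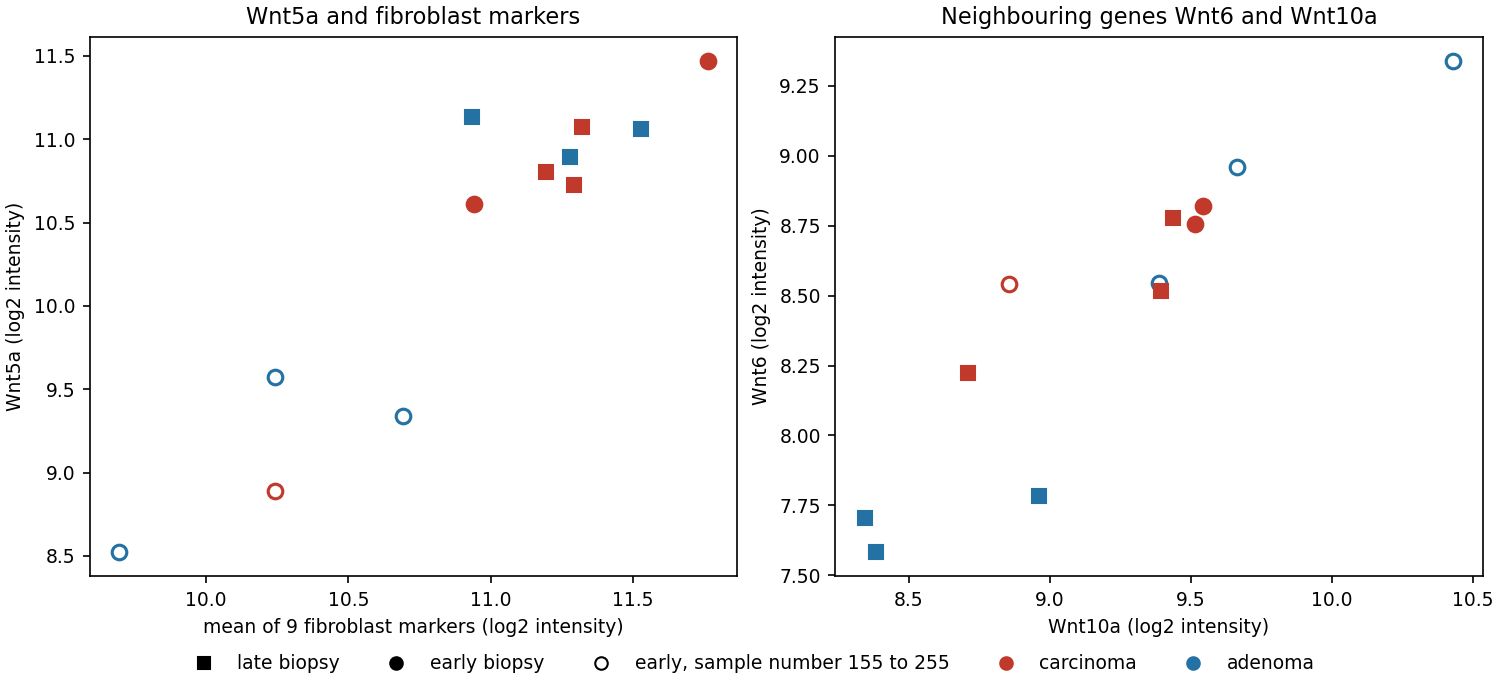
Each point is 1 of 12 arrays: Wnt5a against the mean of 9 fibroblast markers (left) and Wnt6 against Wnt10a (right), all in log2 intensity; squares are late and circles early biopsies, open circles are arrays numbered 155 to 255, red is carcinoma and blue is adenoma. The 4 open circles take the lowest corner on the left, and the 3 late adenoma squares lie lowest for Wnt6 on the right.

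Wnt5a, the best known ligand of the branch that does not use beta-catenin and a product of gut fibroblasts, moved most in size but did not pass the test in any comparison. In late carcinoma biopsies of mice 2201, 3407 and 3413 it stood at 10.7, 11.1 and 10.8, against 8.89, 10.6 and 11.5 in their early biopsies. In late adenoma biopsies of mice 1755, 1803 and 1805 it stood at 10.9, 11.1 and 11.1, against 9.57, 8.53 and 9.34 early. The late values were nearly level over the 6 tumors (SD 0.165) while the early values were spread widely (SD 1.11). The difference was 1.88 in adenoma (SE 0.445, 3.69-fold, limma adjusted p = 0.121), with no overlap, and 0.54 in carcinoma (SE 0.445, limma adjusted p = 0.952), where 2 of 3 mice were higher late; the carcinoma value was -0.10 without mouse 2201 and 1.15 without mouse 3413. The difference of these changes was -1.34 (SE 0.629, limma adjusted p = 0.723).

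Wnt5a also differed by sample number range. All 8 arrays of the second range lay at 10.6 to 11.5 and all 4 of the first at 8.53 to 9.57, and Wnt5a was the only one of the 10 ligands whose ranges did not overlap, against 2.18% of all genes that were higher in the second range in this way. The split was placed after values were seen, and with the numbers split at their widest gap instead, 0 ligands were apart, since the early array of mouse 2201 was at 8.89. The mean change was 1.87 ± 0.50 over the 4 pairs across the ranges and -0.10 ± 0.796 over the 2 pairs within the second (SD). With a term for the range the adenoma difference became -0.05. The correction comes from the 3 carcinoma pairs, of which only that of mouse 2201 crosses the ranges. The fibroblast markers ran alongside, with a mean change of 1.04 ± 0.797 in adenoma and 0.29 ± 0.813 in carcinoma (SD, n = 3 each), and so did the endothelial ones, with 1.43 ± 0.197 in adenoma and 0.44 ± 0.785 in carcinoma. In adenoma all 9 fibroblast markers and all 7 endothelial markers were higher late, none of them past the adjusted threshold. Over the 12 arrays Wnt5a correlated at r = 0.930 with the mean of the fibroblast markers, at 0.946 with that of the telocyte and myofibroblast markers and at 0.944 with that of the endothelial markers, and at -0.28 with that of the epithelial markers. The genes most like it were the vessel and matrix laminin chain Lama4 (r = 0.987), Srpx2 (0.981) and the growth factor binding protein Igfbp3 (0.978). What part stromal content or the sample number range had in the Wnt5a difference was not tested.

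Wnt2b, a beta-catenin ligand known from the intestinal mesenchyme, was higher late in 5 of 6 mice. In late carcinoma biopsies of mice 2201, 3407 and 3413 it stood at 8.50, 8.03 and 8.10, against 7.43, 7.74 and 8.15 early. In late adenoma biopsies of mice 1755, 1803 and 1805 it stood at 8.82, 7.89 and 8.07, against 7.54, 7.04 and 7.74 early. Late and early did not overlap in adenoma (0.82, SE 0.244, limma adjusted p = 0.168) and overlapped in carcinoma (0.43, SE 0.244, limma adjusted p = 0.952), where the value was 0.12 without mouse 2201 and 0.68 without mouse 3413. Its changes also differed by sample number range, 0.88 ± 0.409 over the 4 pairs across and 0.12 ± 0.240 over the 2 pairs within (SD), and it correlated at r = 0.886 with the endothelial and 0.827 with the leukocyte marker mean, whose part in its values was not tested. With a term for the range its adenoma difference became -0.12. The genes most like it were Dnm3 (r = 0.949), the endothelial matrix protein Mmrn2 (0.949) and Sncg (0.946).

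Wnt3, which Paneth cells supply to stem cells in the small intestine, was the only one of the 10 ligands higher late in all 6 mice. It stood at 8.09, 7.75 and 7.24 in late carcinoma biopsies of mice 2201, 3407 and 3413, against 7.68, 7.21 and 7.01 early. In adenoma mice 1755, 1803 and 1805 it stood at 8.43, 7.44 and 7.06 late, against 7.37, 7.40 and 6.99 early, and mouse 1755 moved by 1.07 where the other two moved by 0.04 and 0.07. The mean difference was 0.39 in carcinoma and 0.39 in adenoma (SE 0.201 each), and over all 6 tumors 0.39 (SE 0.134, unadjusted p = 0.0200, limma adjusted p = 0.274). Without mouse 1755 these were 0.06 in adenoma and 0.26 over all tumors. Its mean change was 0.40 ± 0.476 over the 4 pairs across the ranges and 0.38 ± 0.225 over the 2 pairs within (SD). The changes across ran from 0.04 to 1.07, the highest being that of mouse 1755. Its correlation with the fibroblast marker mean was 0.112, and the genes most like it were Smim38 (r = 0.937), the NF-kappaB signalling adaptor Tifa (0.919) and Ano9 (0.876).

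Wnt4, which acts in kidney tubules and the female reproductive tract and signals with or without beta-catenin, stood at 8.64, 8.29 and 8.15 in late carcinoma biopsies of mice 2201, 3407 and 3413, against 8.07, 8.10 and 8.48 early. In adenoma mice 1755, 1803 and 1805 it stood at 8.17, 8.66 and 8.33 late, against 7.74, 8.11 and 8.14 early. The adenoma groups did not overlap (0.39, SE 0.167, limma adjusted p = 0.288), and this difference became -0.25 with a term for the sample number range. Wnt4 correlated at r = 0.699 with the fibroblast, 0.686 with the telocyte and myofibroblast and 0.644 with the endothelial marker mean over the 12 arrays, whose part in its values was not tested. With Wnt2b and Wnt5a this made 3 ligands whose late adenoma values were all above the early ones, against 7.42% of all genes. The second Wnt4 probe set, which was not used, changed by 0.03 ± 0.192 over the 6 mice, and the one used by 0.26 ± 0.338 (SD), so the 2 probe sets do not give the same size. On the second probe set the late and early adenoma groups overlapped. Mice 1755, 1803 and 1805 stood there at 7.585, 7.81 and 7.652 late, against 7.597, 7.654 and 7.582 early.

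Like Wnt4, the other 4 ligands had no unadjusted p under 0.05 in any comparison. Wnt11, a ligand of the branch without beta-catenin, stood between 7.63 and 8.36 over the late biopsies, against 7.76 to 7.89 over the early ones; the highest value was that of late adenoma in mouse 1805, whose change was 0.54. Its mean difference in adenoma was 0.21 (SE 0.130, limma adjusted p = 0.467), or 0.04 without that mouse. Its early values were 7.84 to 7.89 in carcinoma-fated biopsies and 7.76 to 7.83 in adenoma-fated ones, apart but by only 0.06 on average (SE 0.152, limma adjusted p = 0.899) and by 0.01 after quantile normalisation. The genes most like Wnt11 were the fibroblast genes Lrrc15 (r = 0.944) and Cthrc1 (0.943), and the platelet tubulin Tubb1 (0.910), yet its correlation with the fibroblast marker mean was 0.105, and the highest with any marker list was 0.517, with squamous epithelium. Wnt2, a beta-catenin ligand of the developing lung, lay between 6.52 and 6.94 late, against 6.55 to 6.93 early, and had the mean nearest to the 25th percentile of gene means; its changes ran from -0.30 in mouse 1755 to 0.39 in mouse 1803, both adenoma. Wnt10b, a beta-catenin ligand of bone and fat, lay between 7.08 and 7.26 late, against 7.09 to 7.31 early. Wnt5b, the closest relative of Wnt5a, lay between 8.04 and 8.22 late, against 8.13 to 8.26 early, and its values did not track those of Wnt5a (r = -0.01 over the 12 arrays). Its largest correlation in size with any marker list was with colon epithelium (r = -0.72), whose part in its values was not tested. For these 4 genes the differences between late and early over all tumors ran from -0.04 to 0.06, with SEs of at least 0.0463, and each was higher late in 3 of 6 mice.

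**Figure D3:**
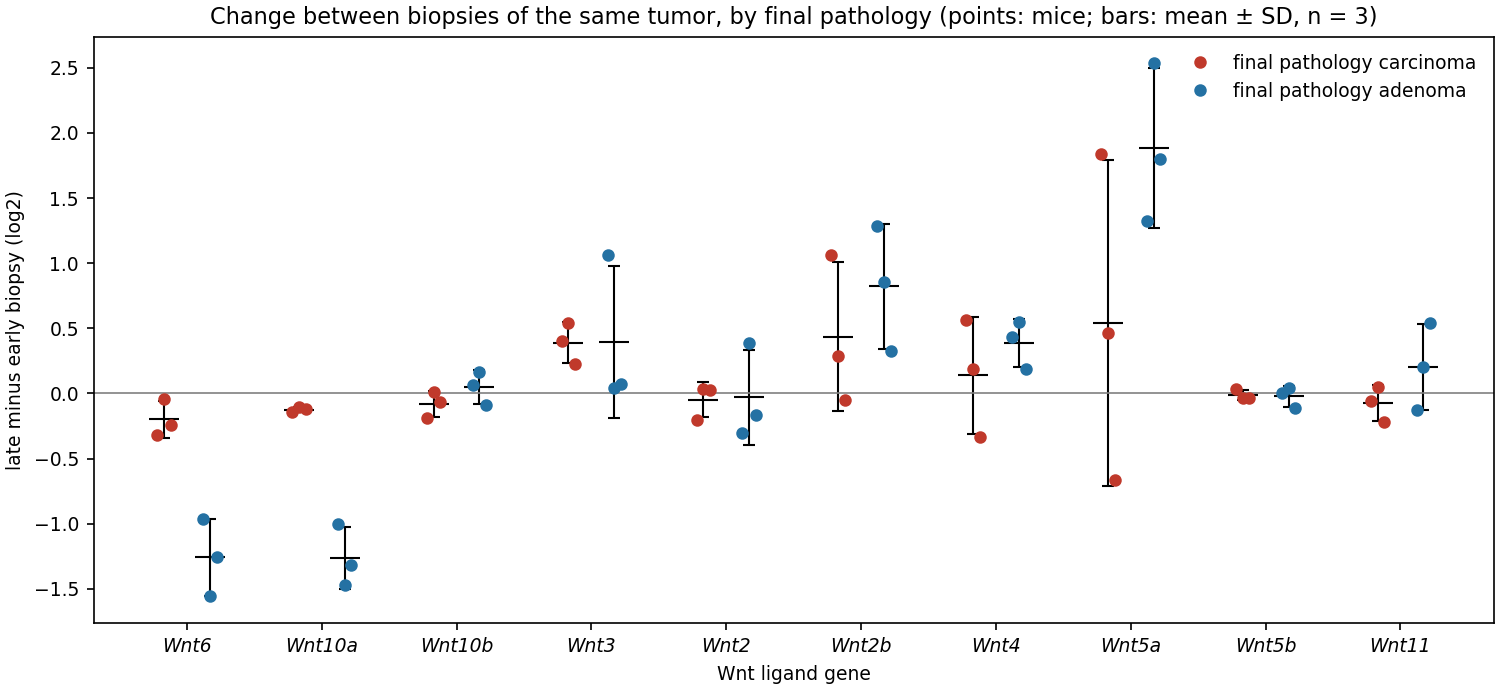
Late minus early log2 intensity (vertical axis) of each of the 10 ligands (horizontal axis), a point per mouse, carcinoma (red) left of adenoma (blue), with mean and SD over 3 mice as bars. The adenoma points of Wnt6 and Wnt10a lie between -0.96 and -1.56, below every carcinoma point of these genes, and the Wnt2 points lie on both sides of 0, from -0.30 to 0.39.

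Over all 6 tumors, late against early called 0% of the 19938 genes at an adjusted p under 0.05. An unadjusted p under 0.05 was reached by 5 of the 10 ligands, Wnt2b (0.63, SE 0.176), Wnt3, Wnt5a (1.21, SE 0.382), Wnt6 (-0.73, SE 0.209) and Wnt10a (-0.69, SE 0.217), and by 14.7% of all genes; the limma adjusted p of these ligands was 0.251 to 0.274. Wnt6 and Wnt10a were lower late in 6 of 6 mice, as were 5.18% of genes, and Wnt3 was higher in 6 of 6, as were 2.59%. Within adenoma tumors 4 ligands (Wnt2b, Wnt5a, Wnt6 and Wnt10a) had an unadjusted p under 0.05, against 18% of genes, and within carcinoma tumors Wnt3 was higher in all 3 mice, as were 9.73% of genes. The median difference of the 10 ligands was -0.03 in carcinoma and 0.13 in adenoma, where that of all genes was -0.03 and -0.01.

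Early biopsies were compared by what the tumor later became. Of 19938 genes 0% were called and 12% had an unadjusted p under 0.05, which none of the 10 ligands had. Wnt11 was the 1 ligand whose early values did not overlap, higher in carcinoma-fated biopsies, as were 10.7% of genes. Wnt5a averaged 10.3 ± 1.31 in carcinoma-fated and 9.14 ± 0.550 in adenoma-fated early biopsies (SD, n = 3 each; difference 1.18, SE 0.534, limma adjusted p = 0.418; 1.89 without mouse 2201 and 0.61 without mouse 3413), and became -0.20 with a term for the sample number range, 2 of the 3 carcinoma-fated arrays and none of the adenoma-fated ones being in the second range. Wnt10a averaged 9.30 ± 0.389 in carcinoma-fated and 9.83 ± 0.540 in adenoma-fated early biopsies (SD, n = 3 each). The difference was -0.52 (SE 0.278, limma adjusted p = 0.485), or -0.22 without mouse 1803 and -0.30 without mouse 2201. Wnt6 differed by -0.24 (SE 0.184, limma adjusted p = 0.627), or -0.05 without mouse 1803, -0.16 without mouse 2201 and -0.44 without mouse 1755.

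The remaining 9 mouse Wnt ligand genes (Wnt1, Wnt3a, Wnt7a, Wnt7b, Wnt8a, Wnt8b, Wnt9a, Wnt9b and Wnt16) had 0 calls in all 6 comparisons by limma. The only unadjusted p under 0.05 among them was that of Wnt8b in adenoma (-0.33, SE 0.103, unadjusted p = 0.0152, limma adjusted p = 0.180), a gene below the 25th percentile of gene means. Of the secretion pair, Wls was higher late in 6 of 6 mice by 0.13 on average (SE 0.0515, limma adjusted p = 0.323), and Porcn differed by 0.01 (SE 0.0979).

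Among 15 receptors and co-receptors, 1 was called. Fzd10 stood at 7.63, 7.77 and 7.68 in late adenoma biopsies of mice 1755, 1803 and 1805, against 8.61, 8.39 and 8.60 early, and fell by 0.84 (log2, SE 0.0923, limma adjusted p = 0.0491). This call held without mouse 2201 (0.0498) and not without any 1 of the other 5 mice (limma adjusted p = 0.0735 to 0.137), nor with the filter on dim genes (0.0572), the trended prior (0.0524) or a term for the sample number range (0.839). In carcinoma it differed by -0.28 (SE 0.0923, limma adjusted p = 0.952), and it was lower late in 6 of 6 mice. In adenoma 10 of the 15 were higher and 5 lower, with a median of 0.14, where 9412 of all 19938 genes were higher. Fzd4 was at 0.71 (SE 0.151) and Fzd8 at 0.46 (SE 0.134), with limma adjusted p of 0.108 and 0.164. Of 7 R-spondins and their Lgr receptors, 6 were higher late in adenoma and 0 were called; Lgr5, the crypt stem cell receptor, differed by 0.96 in carcinoma (SE 0.313, limma adjusted p = 0.952), or 0.55 without mouse 3407, and by 0.38 in adenoma (SE 0.313), or 0.09 without mouse 1755 and 0.74 without mouse 1805.

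Of 15 measured beta-catenin target genes, 11 were lower and 4 higher late in adenoma, with a median of -0.33 and 0 calls. Of all 19938 genes, 10526 were lower there, with a median of -0.01. Among the targets 7 were lower and 1 higher at an unadjusted p under 0.05, against 10.7% and 7.38% of all genes. Apcdd1 was at -1.80 (SE 0.343, limma adjusted p = 0.0930, or -1.19 without mouse 1805) and Bambi at -0.80 (SE 0.140, limma adjusted p = 0.0866, or 0.0498 without mouse 2201). In carcinoma 11 were lower and 4 higher with a median of -0.03, where 12005 of all 19938 genes were lower, also with a median of -0.03. In the late biopsies all 15 were higher in carcinoma than in adenoma, with a median of 0.62 and 0 calls. Of all 19938 genes, 10804 were higher in that comparison, with a median of 0.02. The lowest late values of Rnf43, Prox1 and Apcdd1 were those of adenoma mouse 1805. With mice left out in turn, a check added after the values were seen, the median of the targets without mouse 1805 was 0.19 in the late biopsies (12 of 15 higher) and -0.09 between biopsies in adenoma; without mouse 1803 it was 0.98 and -0.56. Of 11 secreted inhibitors 0 were called in any comparison. In adenoma Notum, which removes the lipid from Wnt proteins, was at -1.06 (SE 0.302), Wif1 at -0.97 (SE 0.313), Dkk3 at -0.60 (SE 0.198) and Sfrp1 at 2.55 (SE 0.867), with limma adjusted p of 0.158 to 0.209. Of the 3 adenoma mice, 1805 had the lowest changes of Notum and Wif1, -2.05 each, and without it the differences were -0.56 for Notum and -0.44 for Wif1; Sfrp1 changed by 0.09 in that mouse. Apc and Ctnnb1, which encodes beta-catenin, differed by 0.04 (SE 0.0716) and -0.17 (SE 0.0886) in adenoma, and 0 of 6 destruction complex genes were called.

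**Figure D4:**
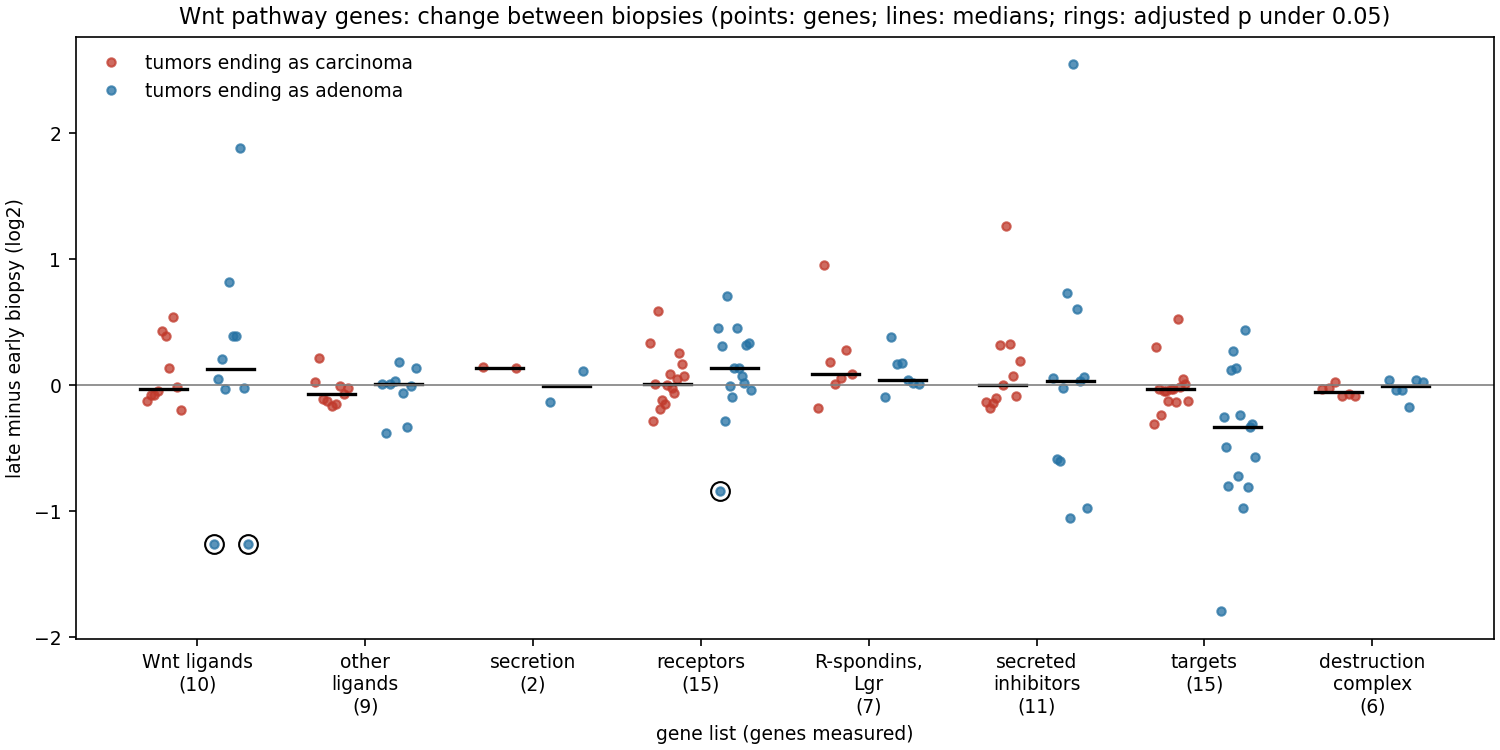
Late minus early difference (log2, vertical axis) of the genes of 8 Wnt pathway lists (horizontal axis, genes measured in brackets), carcinoma (red) left of adenoma (blue), a point per gene, a line at each list's median and a ring around genes at an adjusted p under 0.05. The 3 rings are Wnt10a and Wnt6 at -1.26 and Fzd10 at -0.84, all in adenoma.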

How the data were processed

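Per the labels' protocols, 300 ng of RNA from a biopsy was labelled (Ambion GeneChip WT kit) and hybridised to 1 Affymetrix array. The table deposited by the authors holds 35557 probe sets; it names no unit, and its range is that of log2 intensity, which was assumed. The authors' summary and normalisation steps behind these log2 values are not given in the sources used here. A single gene symbol was found for 21789 probe sets, more than 1 for 1621 and none for 12147. Probe sets with a single symbol were kept, the one with the highest mean for each of 999 genes with more than 1, which left 19938 genes. An array has no read depth, and the number of arrays limits the precision.

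Genes were tested with limma 3.58.1 (R 4.3.3; linear fit, eBayes, 2-sided, Benjamini-Hochberg adjustment over all 19938 genes, threshold 0.05). Late was set against early with mouse as a fixed block (residual df 5 over all tumors, 4 by pathology), and carcinoma against adenoma over 4 groups with mouse as a random block (duplicateCorrelation, correlation 0.286, df 8). SE is that of the fit and SD that over mice. The pairing comes from the animal: deviations of paired arrays correlated at r = 0.110 to 0.527. The early array was best matched by the late array of its own mouse in 5 of 6 mice, and not in mouse 2201 (r = 0.110). The scripts were tested on simulated data. Promoter motifs were matched in RefSeq sequences of 8 members (11 promoters).

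The 10 members, the pathway lists and the marker lists were chosen with earlier results of these data known, so lists are described by counts and medians without a test. Named were all members, up to 3 genes of each list with the smallest unadjusted p in a comparison, Apc and Ctnnb1. For Wnt2b, Wnt3, Wnt5a, Wnt6, Wnt10a and Wnt11 the 3 most correlated genes were also named. They were sought among 14005 genes above the 25th percentile of gene means (predicted genes and small RNAs left out). A few list genes are named in a second comparison or for the value of 1 mouse, chosen after their values were seen. Alternatives were quantile normalisation, median centring, a filter at the 25th percentile, the mean of a gene's probe sets, an intensity trend with a robust prior, no block, a term for the sample number range, and leaving out each mouse.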

Additional observations from a re-analysis of the deposited data

Results flagged for a closer look

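In the early biopsies Wnt5b stood at 8.26 (log2 intensity) in mouse 3407, set apart above the other 5 mice, whose values lay between 8.13 and 8.17. The gap to the nearest of them was 0.682 of the whole range, above the critical value of Dixon's test for 6 samples. It was the 1 outlier among 30 groups of 6 tested (each ligand in late and early biopsies and in the late-early change), where chance gives about 1 in 20, and its late value in the same mouse was 8.22.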

How the results depend on the processing

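In adenoma tumors Wnt6 and Wnt10a each lost their call under 7 of 13 alternatives and Fzd10 under 8. The count of ligands called there, 2, was kept under quantile normalisation, median centring, the filter on dim genes, the mean of probe sets and the trended prior, and was 0 with no replicate block (limma adjusted p = 0.104 for Wnt6 and 0.139 for Wnt10a) and 0 with the sample number term; leaving out 1 mouse gave 0 to 2. The differences ranged from -1.11 to -1.41 for Wnt6 and from -1.16 to -1.39 for Wnt10a over mice left out, and no called value changed sign in any alternative. Of all genes, 25 were called in adenoma tumors, against 57 with each array centred on its median (18 higher and 39 lower, where the reported fit had 7 and 18), 13 with the filter on dim genes, 2 with no replicate block, 0 with the sample number term and 0 to 78 with 1 mouse left out, 78 being without mouse 2201 and 0 without each of mice 1755, 1803 and 1805. The cause was not tested. Counts that were 0 as reported ranged over mice left out from 0 to 2 genes in all tumors (without 3407), 0 to 1 in carcinoma tumors (without 1805), 0 to 395 genes and 0 to 1 ligands in late biopsies (without 1803) and 0 to 67 in early biopsies (67 without 1803, 3 without 2201). Bambi gained a call in adenoma tumors without mouse 2201. With the sample number term, uncalled ligand values moved. In adenoma Wnt2b went to -0.12, Wnt4 to -0.25, Wnt5a to -0.05 and Wnt10b to 0.21. Over all tumors Wnt4 went to -0.07 and Wnt5a to -0.10. In early biopsies Wnt2b fell to -0.11, Wnt4 to -0.02 and Wnt5a to -0.20, while Wnt2 rose to 0.21 and Wnt10b to 0.18. Each adenoma value is the adenoma mean change less a range effect. That effect comes from the 3 carcinoma pairs, of which only that of mouse 2201 crosses the ranges. The values over all tumors are the mean changes of mice 3407 and 3413 alone. In the early biopsies mouse 2201 is the only carcinoma-fated mouse in the range of the adenoma-fated ones. The 1 ligand apart between the ranges became 0 with the numbers split at their widest gap, an alternative chosen after seeing the data. With 3 mice per pathology and no detection calls, small changes of dim genes such as Wnt2 cannot be told from array error.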
